A study of Caenorhabditis elegans with 12 samples.

Results

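The comparison described here set hermaphrodite worms at an age of 2 days against worms at an age of 1 day, both fed bacteria carrying the empty RNAi vector L4440. It used 6 of the 12 libraries of the study, all those that the labels give as L4440, and took in every gene of the table of raw counts. The L4440 day 2 group and the L4440 day 1 group held 3 libraries each of whole worms of the wild-type strain N2. The other 6 libraries came from N2 worms of the same ages on bacteria that express an RNAi construct against bcat-1, the gene of a branched-chain amino acid aminotransferase, 3 at day 2 and 3 at day 1. They entered the estimate of the spread between libraries and gave a second reading of the age change. The labels do not say whether libraries came from separate cultures, so p-values measure the spread between these libraries, which may be technical. The question was which genes and gene families differ between the first and second day.

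The first days of adulthood of a hermaphrodite are its main time of reproduction. The intestine makes yolk proteins that are taken up by oocytes, sperm made before adulthood fertilise the oocytes in the spermatheca, and embryos start to divide in the uterus before they are laid. The cuticle made at the last moult covers a body that still grows, and no further moult takes place. RNA from a whole worm therefore mixes intestine, germ line, epidermis, muscle, neurons and the embryos inside it, and a gene can differ because a tissue holds fewer cells or because each cell holds less RNA, which whole-worm RNA cannot tell apart.

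Transcripts of a reproducing adult were present on both days. Levels are given in CPM, the usual counts scaled to library size, here after TMM factors between libraries. The yolk protein gene vit-2 had 18382, 20674 and 17768 CPM at day 2, against 20377, 19493 and 18754 CPM at day 1. Transcripts of the 31 genes of major sperm proteins, the main protein of nematode sperm, were nearly absent, with 21, 5 and 10 summed counts in the day 2 libraries against 39, 43 and 31 in the day 1 libraries, and no member reached the level needed for testing. The labels do not say from which event the age is counted.

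Library totals lay between 29885578 and 41060319 counts at day 2 and between 30318777 and 43855795 counts at day 1. The day 2 libraries were less alike than the day 1 libraries (replicate numbers only name libraries and pair nothing): 9.43% of genes had an SD above 0.5 on the log2 scale between the day 2 libraries, against 1.93% between the day 1 libraries. In replicate 1 of day 2, 1237 genes lay more than 2-fold from the mean of the day 1 libraries, 1177 of them higher, against 217 in replicate 2 and 622 in replicate 3. Replicate 2 of day 2 correlated more closely with replicate 1 of day 1 (Pearson r = 0.9937 across 14567 genes, which are not independent replicates) than with replicate 1 of day 2 (r = 0.9827). Ribosomal RNA took 6.742% of the counts in replicate 3 of day 2, against 0.07239% to 0.9669% in the other 5 L4440 libraries, and 41.46% in replicate 3 of bcat-1 RNAi at day 2. That last library had 328.6 CPM of bcat-1, above the 116.5 to 156.9 CPM of the L4440 day 2 libraries. Its bcat-1 counts thus did not show the knockdown its label names, and the source of these counts was not tested. In the same library folt-2 had 30.3 CPM, with 43.1 and 34.2 CPM in replicates 1 and 2 of its group. The L4440 day 2 libraries had 128 to 230 CPM. For hphd-1 it had 114.7 CPM, with 149 and 126 CPM in those replicates and 268 to 373 CPM at L4440 day 2. Both genes were picked here after their values were seen.

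Of 14567 genes tested, 335 differed between L4440 day 2 and L4440 day 1 at a Benjamini-Hochberg adjusted p under 0.05 in edgeR's quasi-likelihood test, which is 2.3% of the genes. Day 2 was higher for 147 genes (1.01%) and lower for 188 (1.29%). Among these 335 genes the rises were the larger changes. The median log2 fold change was 1.29 for the 147 that rose and -0.90 for the 188 that fell. A gene with more spread between libraries needs a larger fold to pass, so these medians describe only the genes that passed. At least 2-fold differences were found for 93 genes that rose and 79 that fell, and at least 4-fold differences for 33 and 10. The 3 day 2 libraries and the 3 day 1 libraries did not overlap for any of the 335 genes, and they did not overlap for 3605 (24.7%) of all genes tested. Over all genes the median log2 fold change was -0.0010.

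The number of genes past the threshold depended on single libraries. It was 1017 without replicate 2 of L4440 day 2, of which 805 were higher, and 166 and 118 without replicate 1 and replicate 3 of that group. Leaving out replicate 1, 2 or 3 of L4440 day 1 left 126, 79 and 123 genes. Among the bcat-1 RNAi libraries, which enter through the spread, 4 moved the count by more than 1.5 times: 206 and 196 genes were called without replicates 2 and 3 of day 1, and 729 and 574 without replicates 1 and 3 of day 2. Every one of the 335 kept its direction in each of the 12 fits that left out 1 library, and 71 of them, 29 higher and 42 lower, stayed past the threshold in all 12. The highest adjusted p in those 12 fits is given below with the genes it concerns. For 254 of the 335 genes it came from the fit without replicate 2 of L4440 day 1.

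**Figure D1:**
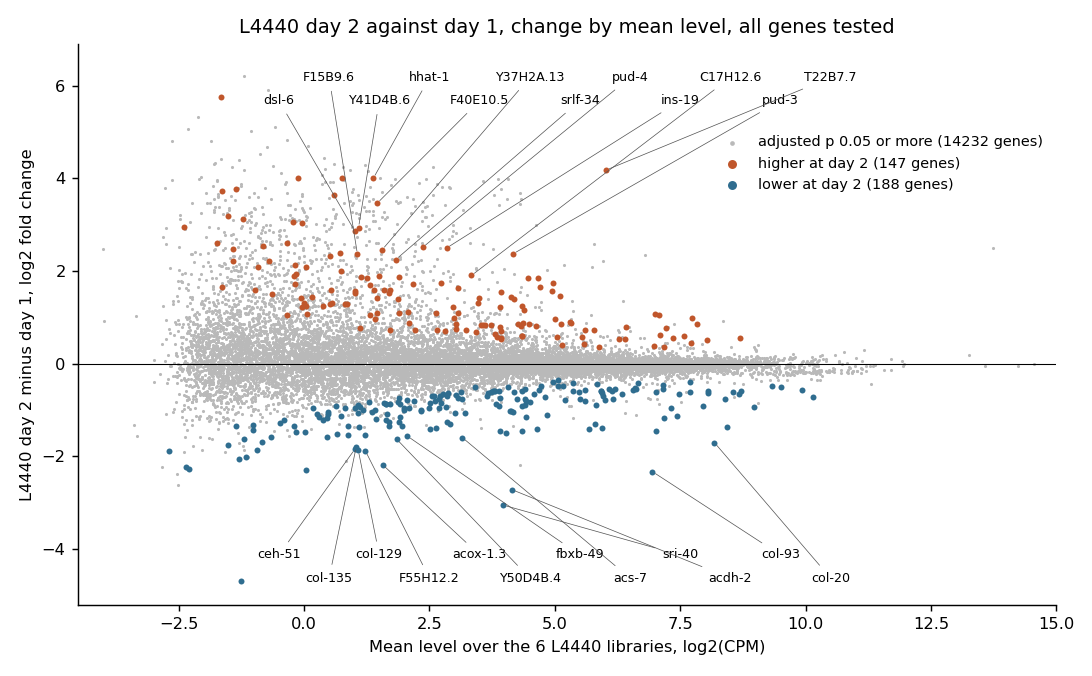
Log2 fold change of L4440 day 2 over L4440 day 1 (vertical) against the mean level over the 6 L4440 libraries in log2 CPM (horizontal) for 14567 genes, with the 147 genes that rose in orange, the 188 that fell in blue and all others in grey. Names mark the 12 largest rises and 12 largest falls among genes past the threshold with a mean of at least 2 CPM; the rises spread further from 0 than the falls.

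Among genes with a mean of at least 2 CPM over the L4440 libraries, the gene with the largest rise was T22B7.7 (chrX:5651865-5654074, WBcel235). It had 65.5, 108 and 196 CPM at day 2, against 9.60, 6.21 and 4.46 CPM at day 1, with log2 fold change 4.18 ± 0.41 (SE), adjusted p = 0.000628. All 3 day 2 libraries lay several-fold above all 3 day 1 libraries. The predicted genes F15B9.6 and C17H12.6 showed little scatter: F15B9.6 had 4.46, 3.24 and 2.81 CPM at day 2, against 0.739, 0.619 and 0.691 CPM at day 1 (log2 fold change 2.36 ± 0.21, adjusted p = 0.000276), and C17H12.6 had 18.1, 13.5 and 16.3 CPM at day 2, against 4.60, 4.29 and 3.89 CPM at day 1 (log2 fold change 1.91 ± 0.17, adjusted p = 0.000276). The neighbours pud-3 and pud-4 encode small proteins named for their rise in worms with low insulin-like signalling (daf-2 mutants). pud-3 had 29.1, 21.2 and 40.2 CPM at day 2, against 7.55, 5.06 and 4.80 CPM at day 1 (log2 fold change 2.37 ± 0.29, adjusted p = 0.00235). pud-4 had 8.16, 5.84 and 12.3 CPM at day 2, against 2.00, 1.22 and 1.38 CPM at day 1 (log2 fold change 2.51 ± 0.32, adjusted p = 0.00272). For both, the lowest day 2 library lay above the highest day 1 library by more than 2-fold, and both sit within chrV:2324634-2327282. Y37H2A.13 was the other gene of the 12 that passed in every fit with a library left out (6.32, 4.60 and 4.00 CPM at day 2, against 0.786, 1.02 and 0.911 CPM at day 1; log2 fold change 2.46 ± 0.27, adjusted p = 0.0012).

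The remaining 6 of the 12 largest rises were uneven between the day 2 libraries. hhat-1, a member of the family of acyltransferases that modify hedgehog proteins in other animals, had 8.65, 1.48 and 4.54 CPM at day 2, against 0.119, 0.265 and 0.565 CPM at day 1 (log2 fold change 4.00 ± 0.87, adjusted p = 0.0369). ins-19, an insulin-like peptide gene, had 21.6, 4.90 and 10.1 CPM at day 2, against 2.03, 2.83 and 1.60 CPM at day 1 (log2 fold change 2.50 ± 0.51, adjusted p = 0.0281). dsl-6, of the family of Notch ligands, had 5.92, 1.60 and 3.05 CPM at day 2, against 0.238, 0.398 and 0.848 CPM at day 1 (log2 fold change 2.87 ± 0.65, adjusted p = 0.0443). In hhat-1, ins-19 and dsl-6, replicate 1 of day 2 was the highest library and replicate 2 the lowest of its group. The same order held for F40E10.5, Y41D4B.6 and srlf-34, whose log2 fold changes were 3.46, 2.94 and 2.24. With 1 library left out, the highest adjusted p was 0.165 for hhat-1, 0.145 for F40E10.5, 0.182 for Y41D4B.6, 0.184 for dsl-6 and 0.12 for srlf-34 (replicate 2 of L4440 day 1 left out); 0.107 for ins-19 (replicate 3 of L4440 day 1 left out).

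The largest fall was that of sri-40 (chrII:3177963-3180478), a gene of the chemoreceptor superfamily. It had 3.04, 3.57 and 3.53 CPM at day 2, against 25.6, 31.9 and 26.2 CPM at day 1, with log2 fold change -3.05 ± 0.18, adjusted p = 2.14e-05. The libraries of each day were close together and far from those of the other day. Of 107 chemoreceptor genes tested, sri-40 was the only one that fell, and 2 rose, to be read against 1.29% lower and 1.01% higher over all genes. acdh-2, an acyl-CoA dehydrogenase gene, had 4.52, 6.99 and 2.48 CPM at day 2, against 29.2, 41.5 and 21.3 CPM at day 1 (log2 fold change -2.71 ± 0.36, adjusted p = 0.00362). acox-1.3, an acyl-CoA oxidase gene, had 1.11, 1.15 and 0.95 CPM at day 2, against 5.19, 4.73 and 4.68 CPM at day 1 (log2 fold change -2.18 ± 0.16, adjusted p = 6.97e-05). fbxb-49, an F-box gene, had 2.31, 2.09 and 1.93 CPM at day 2, against 6.70, 6.48 and 5.56 CPM at day 1 (log2 fold change -1.56 ± 0.16, adjusted p = 0.00087). All 4 passed in each fit that left out a library. The other 8 of the 12 largest falls were the collagen genes col-93, col-129, col-135 and col-20, the homeobox gene ceh-51, the acyl-CoA synthetase gene acs-7, and F55H12.2 and Y50D4B.4, with log2 fold changes between -1.59 (acs-7) and -2.33 (col-93). Over the 12 fits with 1 library left out, the adjusted p reached 0.157 for col-93 and 0.0726 for col-135 (replicate 2 of L4440 day 1 left out), 0.135 for F55H12.2 (replicate 3 of L4440 day 2 left out) and 0.131 for acs-7 (replicate 3 of L4440 day 1 left out).

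Part of the genes that break down branched-chain amino acids and propionate fell. Worms dispose of propionate through a vitamin B12-dependent route to succinyl-CoA, or through a B12-independent shunt in which acdh-1, ech-6, hach-1, hphd-1 and alh-8 act one after another. In the list of both pathways, 7 of 26 genes fell (26.9%, against 1.29% of all genes) and none rose, with a median log2 fold change of -0.19. The 7 were the 5 shunt genes together with acdh-2 and acdh-9. acdh-1, which encodes the dehydrogenase that opens the shunt, had 808, 891 and 673 CPM at day 2, against 1074, 1215 and 1209 CPM at day 1 (log2 fold change -0.56 ± 0.11, adjusted p = 0.0235). ech-6, which encodes an enoyl-CoA hydratase, had 321, 362 and 319.5 CPM at day 2, against 467, 558 and 477 CPM at day 1 (log2 fold change -0.58 ± 0.10, adjusted p = 0.0115). The hydrolase gene hach-1 had 194, 244 and 189 CPM at day 2, against 295, 360.0 and 322 CPM at day 1 (log2 fold change -0.64 ± 0.13, adjusted p = 0.0269). Each of these day 2 libraries lay below each day 1 library. hphd-1, for the transhydrogenase that acts on 3-hydroxypropionate, had 313, 373 and 268 CPM at day 2, against 477, 549 and 484 CPM at day 1 (log2 fold change -0.66 ± 0.13, adjusted p = 0.0255). alh-8, for the dehydrogenase of malonic semialdehyde, had 597, 673 and 544 CPM at day 2, against 813, 904 and 840.5 CPM at day 1 (log2 fold change -0.50 ± 0.09, adjusted p = 0.0204). acdh-9, another acyl-CoA dehydrogenase gene, had 32.3, 34.4 and 30.6 CPM at day 2, against 73.00, 86.4 and 78.3 CPM at day 1 (log2 fold change -1.29 ± 0.09, adjusted p = 3.48e-05).

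The 4 genes of the B12-dependent route gave values near 0: log2 fold changes were 0.13 ± 0.17 (adjusted p = 0.803) for pcca-1, 0.16 ± 0.16 (adjusted p = 0.71) for pccb-1, 0.06 ± 0.13 (adjusted p = 0.909) for mce-1 and 0.03 ± 0.13 (adjusted p = 0.968) for mmcm-1. For bckd-1A and dbt-1, subunits of the dehydrogenase complex that commits branched-chain amino acids to breakdown, they were -0.13 ± 0.11 (adjusted p = 0.658) and -0.18 ± 0.09 (adjusted p = 0.307). These 6 genes and the grouping of the shunt were picked after their values were seen. Leaving out 1 library gave between 2 (without replicate 2 of L4440 day 1) and 9 (without replicate 2 of L4440 day 2) list members that fell. acdh-2 and acdh-9 passed in all 12 fits. Leaving out single libraries brought the adjusted p up to 0.114 for acdh-1, 0.0726 for ech-6, 0.135 for hach-1, 0.126 for hphd-1 and 0.114 for alh-8 (replicate 2 of L4440 day 1 left out).

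**Figure D2:**
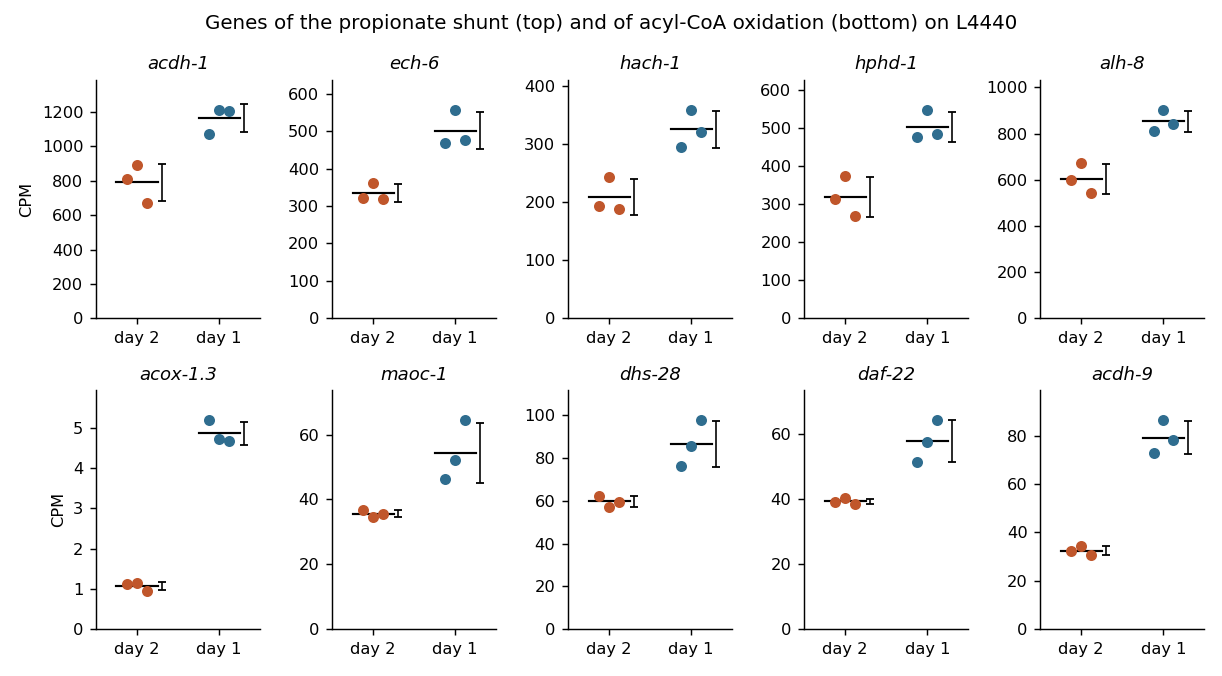
CPM (vertical, from 0) of 10 genes in the 3 L4440 day 2 libraries (orange) and the 3 L4440 day 1 libraries (blue); bars mark the mean of each group and whiskers its SD. The top row holds the 5 genes of the propionate shunt, and the bottom row acox-1.3, maoc-1, dhs-28, daf-22 and acdh-9; in every panel all day 2 points lie below all day 1 points.

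Some genes of fatty acid oxidation fell as well. Of 43 genes for lipolysis and beta-oxidation, 7 fell (16.3%) and 1 rose, with a median log2 fold change of -0.06. Over all genes 1.29% fell and 1.01% rose. acdh-9 and ech-6 stand on this list too. Among the others were acox-1.3, maoc-1, dhs-28 and daf-22, which encode an acyl-CoA oxidase, an enoyl-CoA hydratase, a hydroxyacyl-CoA dehydrogenase and a thiolase of the peroxisome, enzymes known for shortening the side chains of ascaroside pheromones. daf-22 had 39.1, 40.3 and 38.7 CPM at day 2, against 51.7, 57.8 and 64.4 CPM at day 1 (log2 fold change -0.56 ± 0.09, adjusted p = 0.00752). maoc-1 had 36.8, 34.6 and 35.5 CPM at day 2, against 46.3, 52.3 and 64.5 CPM at day 1 (log2 fold change -0.61 ± 0.11, adjusted p = 0.0187). dhs-28 had 62.4, 57.1 and 59.6 CPM at day 2, against 76.1, 85.6 and 97.7 CPM at day 1 (log2 fold change -0.53 ± 0.12, adjusted p = 0.0453). For the 3 genes the day 2 libraries agreed within a few CPM and lay below all day 1 libraries. The neighbouring oxidase genes differed among themselves: acox-1.1 gave log2 fold change -0.53 ± 0.13, adjusted p = 0.0566, acox-1.2 log2 fold change 0.17 ± 0.32, adjusted p = 0.891 and acox-1.4 log2 fold change 0.59 ± 0.18, adjusted p = 0.0961, so none of the 3 passed. kat-1, a mitochondrial thiolase gene, fell (log2 fold change -0.40 ± 0.08, adjusted p = 0.0272). lipl-5, a lysosomal lipase gene, was the one that rose, with 184, 185 and 214 CPM at day 2, against 132, 124 and 141 CPM at day 1 (log2 fold change 0.55 ± 0.10, adjusted p = 0.0148). maoc-1, dhs-28, kat-1 and the acox comparisons were picked after their values were seen. acox-1.3 and daf-22 passed in all 12 fits. The adjusted p in fits with 1 library left out went up to 0.147 for dhs-28, 0.139 for kat-1 and 0.0872 for lipl-5 (replicate 2 of L4440 day 1 left out); 0.0758 for maoc-1 (replicate 3 of L4440 day 2 left out). The list had between 3 members that fell without replicate 2 of L4440 day 1 and 9 without replicate 1 of bcat-1 RNAi day 2.

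Of 26 genes of one-carbon and methionine metabolism, 2 fell (7.69%, against 1.29% of all genes) and none rose: folt-2, a folate transporter gene, with 162, 230.0 and 128 CPM at day 2, against 325, 369 and 279 CPM at day 1 (log2 fold change -0.90 ± 0.19, adjusted p = 0.0354), and pmt-2, a phosphoethanolamine methyltransferase gene, with 182, 236 and 219.9 CPM at day 2, against 326, 346 and 283 CPM at day 1 (log2 fold change -0.58 ± 0.13, adjusted p = 0.0482). Of 19 acyl-CoA synthetase genes, acs-3, acs-7 and acs-14 fell (15.8%). A further 5 genes of amino acid breakdown were picked because they fell and stand for no list: aass-1 of lysine breakdown (log2 fold change -0.70 ± 0.09, adjusted p = 0.0031), haly-1 and uroc-1 of histidine breakdown (log2 fold change -0.76 ± 0.10, adjusted p = 0.0043 and log2 fold change -0.59 ± 0.11, adjusted p = 0.0173), and tatn-1 and hpd-1 of tyrosine breakdown (log2 fold change -0.78 ± 0.13, adjusted p = 0.00969 and log2 fold change -0.60 ± 0.14, adjusted p = 0.0437). aass-1 had 50.4, 46.4 and 45.4 CPM at day 2, against 76.2, 80.97 and 73.9 CPM at day 1, and haly-1 had 17.7, 14.6 and 15.2 CPM at day 2, against 26.5, 25.05 and 28.8 CPM at day 1. Both passed in all 12 fits with a library left out. With 1 library left out, the highest adjusted p was 0.156 for folt-2, 0.195 for pmt-2, 0.135 for acs-3, 0.137 for acs-14, 0.0864 for uroc-1, 0.0608 for tatn-1 and 0.182 for hpd-1 (replicate 2 of L4440 day 1 left out); 0.131 for acs-7 (replicate 3 of L4440 day 1 left out). None of 31 genes of the TCA and glyoxylate cycle and none of 24 of glycolysis passed in edgeR; 3 of each had an unadjusted p under 0.05, all lower at day 2, DESeq2 called 1 and 0, and limma-voom called none.

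Collagen genes of the cuticle split in 2 directions. Of 103 col genes tested, 12 fell (11.7%) and 2 rose (1.94%), and the median of all 103 was 0.18. Over all genes 1.29% fell and 1.01% rose. The summed level of the family was 5211, 5422 and 5640 CPM at day 2, against 7840, 9119 and 7073 CPM at day 1. The 12 that fell included col-19, a collagen of the adult cuticle, with 112, 102 and 111 CPM at day 2, against 200.1, 277 and 231 CPM at day 1 (log2 fold change -1.12 ± 0.17, adjusted p = 0.00646). col-20 had 129, 127 and 155 CPM at day 2, against 371, 536 and 428 CPM at day 1 (log2 fold change -1.70 ± 0.27, adjusted p = 0.00933), col-8 had 186, 185 and 215 CPM at day 2, against 443, 573 and 484 CPM at day 1 (log2 fold change -1.36 ± 0.25, adjusted p = 0.0201), and col-119 had 327, 337 and 370.5 CPM at day 2, against 639, 756 and 582 CPM at day 1 (log2 fold change -0.93 ± 0.18, adjusted p = 0.0242). Their day 1 libraries were 1.5-fold or more above any day 2 library. col-129 and col-139, of low level, also fell (log2 fold change -1.86 ± 0.27, adjusted p = 0.00628 and log2 fold change -1.54 ± 0.25, adjusted p = 0.00993). col-43 and col-76 were the 2 that rose, with 21.4, 11.8 and 13.8 CPM at day 2, against 6.60, 5.88 and 6.56 CPM at day 1 for col-43 and 29.2, 12.95 and 20.9 CPM at day 2, against 9.10, 9.04 and 8.85 CPM at day 1 for col-76, and replicate 1 of day 2 was the highest library in both. col-19, col-20 and col-129 passed in all 12 fits. Over the 12 fits with 1 library left out, the adjusted p reached 0.0893 for col-8, 0.114 for col-119, 0.0564 for col-139, 0.171 for col-43 and 0.157 for col-76 (replicate 2 of L4440 day 1 left out). Without L4440 day 2 replicate 2, 10 col genes fell and 14 rose; without replicate 2 of L4440 day 1, 3 fell and none rose.

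Muscle genes that passed the test fell. Of 48 genes of body muscle, 4 fell (8.33%, against 1.29% of all genes) and none rose, while the median over the list was 0.10. They encode parts of the thin filament: troponin T (tnt-2), troponin I (unc-27), troponin C (pat-10) and the calponin-like protein UNC-87. tnt-2 had 121, 98.2 and 108 CPM at day 2, against 200.1, 234 and 198 CPM at day 1 (log2 fold change -0.95 ± 0.15, adjusted p = 0.00752). unc-27 had 176, 153 and 163 CPM at day 2, against 246, 273 and 232 CPM at day 1 (log2 fold change -0.61 ± 0.13, adjusted p = 0.0306). pat-10 had 337, 255 and 306 CPM at day 2, against 426, 515 and 419.6 CPM at day 1 (log2 fold change -0.60 ± 0.13, adjusted p = 0.0384), and unc-87 had 130.2, 109 and 121 CPM at day 2, against 163, 182 and 152 CPM at day 1 (log2 fold change -0.46 ± 0.10, adjusted p = 0.0331). For each gene the day 2 libraries lay below the day 1 libraries without overlap. The myosin and paramyosin genes unc-54 and unc-15 gave log2 fold change -0.34 ± 0.16, adjusted p = 0.285 and log2 fold change -0.31 ± 0.16, adjusted p = 0.328, so neither passed, and both were picked after their values were seen. Only tnt-2 of the 4 passed in all 12 fits. Leaving out single libraries brought the adjusted p up to 0.143 for unc-27, 0.159 for unc-87 and 0.169 for pat-10 (replicate 2 of L4440 day 1 left out). Without L4440 day 2 replicate 2, 3 members fell and 2 rose.

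Part of the genes for defence against microbes rose. Among 44 immune effector genes 10 rose (22.7%, against 1.01% of all genes) and 1 fell, with a median log2 fold change of 0.21. lys-2, a lysozyme gene, had 189.5, 169.8 and 160.4 CPM at day 2, against 98.1, 77.3 and 72.1 CPM at day 1 (log2 fold change 1.07 ± 0.15, adjusted p = 0.0046). hpo-6, named for sensitivity to pore-forming toxin, had 57.5, 51.1 and 47.9 CPM at day 2, against 31.9, 26.8 and 26.3 CPM at day 1 (log2 fold change 0.88 ± 0.10, adjusted p = 0.00137). clec-85, a C-type lectin gene, had 40.1, 46.4 and 41.1 CPM at day 2, against 23.6, 23.5 and 18.6 CPM at day 1 (log2 fold change 0.96 ± 0.15, adjusted p = 0.0082); 27.7% of its exon bases are shared with Y54G2A.40 on the same strand, so its reads may be shared with that gene. dod-24, a defence gene downstream of DAF-16 and PMK-1 signalling, had 29.1, 29.02 and 61.6 CPM at day 2, against 14.8, 13.2 and 9.92 CPM at day 1 (log2 fold change 1.65 ± 0.30, adjusted p = 0.0163). In hpo-6, lys-2 and clec-85 the day 2 libraries were close to each other, whereas dod-24 was highest in replicate 3. hpo-6, lys-2 and clec-85 passed in all 12 fits, and for dod-24 the highest adjusted p was 0.0792 (replicate 2 of L4440 day 1 left out). Between 3 (without replicate 2 of L4440 day 1) and 13 (without replicate 1 of bcat-1 RNAi day 2) list members rose with 1 library left out.

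The families behind this list did not move as one. Their counts are to be read against 1.01% higher and 1.29% lower over all genes. Of 11 lysozyme genes, lys-1, lys-2 and lys-8 rose and lys-4 fell. lys-1 had 331, 312 and 286 CPM at day 2, against 235, 212 and 199.7 CPM at day 1 (log2 fold change 0.52 ± 0.11, adjusted p = 0.0306), lys-8 had 166, 163 and 161 CPM at day 2, against 130.1, 133 and 118 CPM at day 1 (log2 fold change 0.36 ± 0.08, adjusted p = 0.0465) and lys-4 had 159.6, 139.7 and 115 CPM at day 2, against 199.7, 229.8 and 223 CPM at day 1 (log2 fold change -0.66 ± 0.13, adjusted p = 0.0235). Of 23 genes of the cnc, fip and abf antimicrobial peptide families, 6 rose (26.1%) and none fell. cnc-4 had 12.8, 9.47 and 8.51 CPM at day 2, against 2.38, 2.14 and 4.71 CPM at day 1 (log2 fold change 1.75 ± 0.37, adjusted p = 0.034), and cnc-7 had 4.10, 2.78 and 4.34 CPM at day 2, against 1.29, 1.06 and 0.754 CPM at day 1 (log2 fold change 1.84 ± 0.39, adjusted p = 0.0342). cnc-6, also called, had 0.976, 0.333 and 0.577 CPM at day 2, against at most 3 counts in each day 1 library, so no fold is given. Of 104 C-type lectin genes, 4 rose (3.85%) and 2 fell (1.92%); clec-65 had 100.4, 99.9 and 97.2 CPM at day 2, against 74.6, 67.8 and 64.3 CPM at day 1 (log2 fold change 0.53 ± 0.08, adjusted p = 0.0082), and clec-196, which fell, had 6.06, 5.36 and 6.51 CPM at day 2, against 11.1, 12.4 and 13.97 CPM at day 1 (log2 fold change -1.06 ± 0.15, adjusted p = 0.0046). The adjusted p in fits with 1 library left out went up to 0.141 for lys-1, 0.111 for lys-4, 0.159 for cnc-4, 0.141 for cnc-7, 0.0726 for cnc-6 and 0.0608 for clec-65 (replicate 2 of L4440 day 1 left out); 0.145 for lys-8 (replicate 3 of L4440 day 1 left out). Without L4440 day 1 replicate 2, 1 lysozyme gene and no cnc, fip or abf gene rose.

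Of 32 genes in the list of insulin-like signalling and targets of its transcription factor DAF-16, 5 rose (15.6%) and none fell. Over all genes 1.01% rose, and the median of the list was 0.20. The 5 were dod-3, dod-17, dod-19, dod-24 and lys-8, of which dod-24 and lys-8 were already given above with the defence genes. The dod genes, named as downstream of DAF-16, gave 4 rises among 9 tested (44.4%), which are the dod genes just named. The name does not tell whether DAF-16 raises or lowers a gene, so these rises give no reading of its activity. dod-3 had 4.81, 2.90 and 2.65 CPM at day 2, against 0.953, 0.84 and 1.04 CPM at day 1 (log2 fold change 1.88 ± 0.26, adjusted p = 0.0046). dod-19 had 299, 332 and 214 CPM at day 2, against 173, 159.8 and 95.9 CPM at day 1 (log2 fold change 0.98 ± 0.22, adjusted p = 0.0403), and dod-17 had 3.93, 4.02 and 9.60 CPM at day 2, against 1.64, 1.68 and 1.44 CPM at day 1 (log2 fold change 1.87 ± 0.42, adjusted p = 0.0436). dod-19 was lowest in replicate 3 on each day, and dod-17 was highest in replicate 3 of day 2. mtl-1, a metallothionein gene often read as a DAF-16 target, had 9.67, 4.30 and 7.97 CPM at day 2, against 1.95, 1.55 and 7.76 CPM at day 1 (log2 fold change 0.98 ± 0.52, adjusted p = 0.361), and replicate 3 of day 1 lay within the range of the day 2 libraries. sod-3, another such gene, gave log2 fold change -0.09 ± 0.21, adjusted p = 0.922. dod-3 passed in all 12 fits. With 1 library left out, the highest adjusted p was 0.115 for dod-19 and 0.157 for dod-17 (replicate 2 of L4440 day 1 left out). mtl-1 and sod-3 were picked after their values were seen.

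Some genes that rose lie side by side. With gaps of at most 10 kb between genes called in the same direction, 3 runs of 3 genes were found, all of them higher at day 2. The first, at chrIV:12962808-12978343, held F55G11.8, F55G11.4 and dod-17 among 6 genes tested in that span, with log2 fold changes between 0.83 and 1.87. F55G11.4 had 31.4, 25.5 and 46.9 CPM at day 2, against 10.5, 9.20 and 9.07 CPM at day 1. The second, at chrII:13996958-14002300, held F01D5.1, F01D5.2 and F01D5.5 among 4 genes tested, with log2 fold changes between 1.10 and 1.56. The third, at chrV:13721249-13736247, held WBGene00009425, dct-17 and F35E12.6 among 6 genes tested. dct-17 had 12.7, 12.3 and 13.1 CPM at day 2, against 5.22, 3.63 and 3.39 CPM at day 1 (log2 fold change 1.64 ± 0.19, adjusted p = 0.00137), and F35E12.6, with 92.2, 92.1 and 92.5 CPM at day 2, against 62.3, 65.3 and 64.1 CPM at day 1, rose less (log2 fold change 0.53 ± 0.09, adjusted p = 0.0151). Reads that map to several places may have been shared among similar neighbours, since their treatment is not given in the sources used here.

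**Figure D3:**
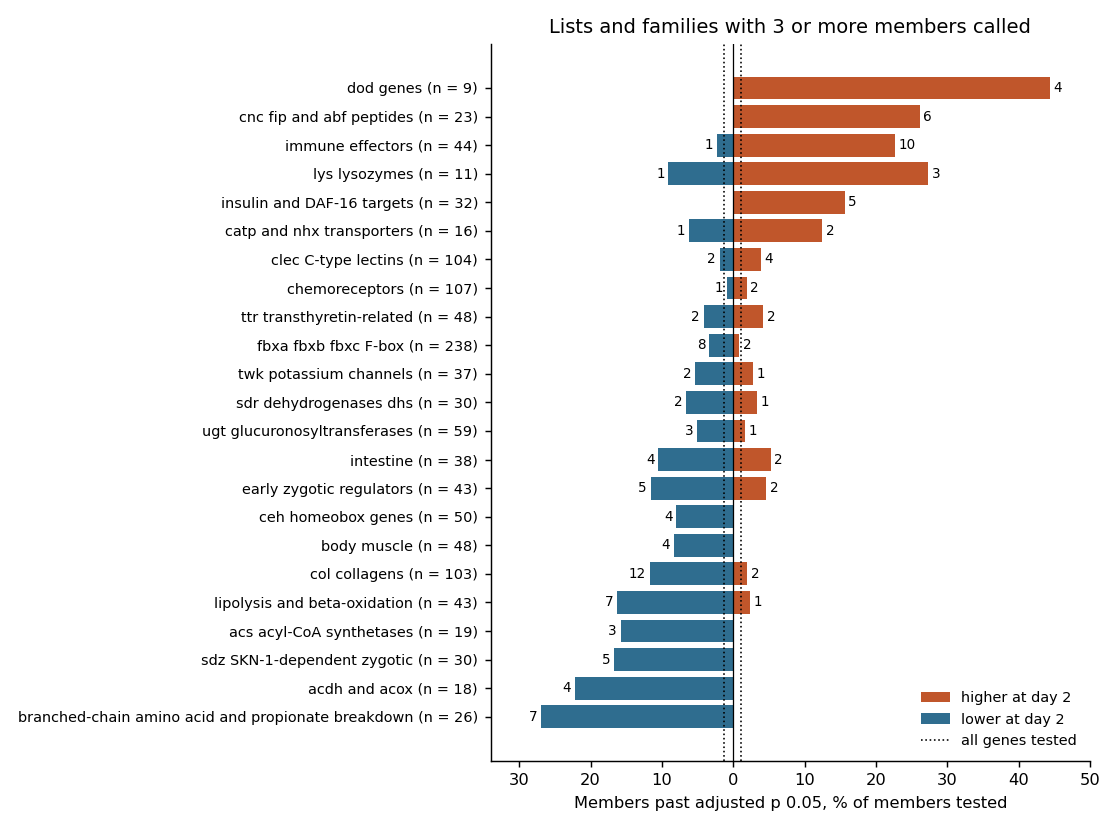
Members past an adjusted p of 0.05 as a percentage of members tested, higher at day 2 to the right (orange) and lower to the left (blue), for the lists and families with 3 or more such members; numbers give the members called and n the members tested. Dotted lines mark 1.01% and 1.29% over all 14567 genes; dod genes, antimicrobial peptides and immune effectors lean right, and branched-chain amino acid and propionate breakdown leans left.

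The following lists of oocyte and germ line genes had no member past the test in edgeR, in either direction. None of 25 genes of oocyte RNA-binding proteins, 46 of germline stem cells and meiosis, 39 of P granules and small RNA, 28 of eggshell and egg activation, or 69 of cell cycle and DNA replication was called by edgeR. Their members at an unadjusted p under 0.05 numbered 0, 0, 0, 3 and 1, DESeq2 called 1 eggshell gene, and limma-voom called none. Their medians lay between -0.01 and 0.07. In the cpg family of eggshell proteoglycans, some of which stand on the eggshell list too, edgeR and limma-voom called none of 13 genes. Of these, 6 had an unadjusted p under 0.05 in edgeR, 5 of them higher at day 2, and DESeq2 called 2. rme-2, the yolk receptor gene of oocytes, had 1246, 1523 and 1403 CPM at day 2, against 1431, 1339 and 1255 CPM at day 1 (log2 fold change 0.05 ± 0.12, adjusted p = 0.921), with the groups overlapping. The 6 vitellogenin genes had a median of -0.02, and vit-2 gave log2 fold change -0.04 ± 0.11, adjusted p = 0.928. No vitellogenin gene was called by edgeR, DESeq2 or limma-voom. They ran from -0.43 ± 0.17 (adjusted p = 0.197) for vit-1 to 0.20 ± 0.15 (adjusted p = 0.571) for vit-5. Only vit-1 had an unadjusted p under 0.05 in edgeR.

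Of the 5 ule genes, which encode secreted proteins of the uterine lumen, ule-1, ule-2 and ule-4 rose and none fell. Over all genes 1.01% rose. The ule family was added after values were seen. ule-1 had 283, 314 and 281 CPM at day 2, against 184, 147 and 154 CPM at day 1 (log2 fold change 0.85 ± 0.11, adjusted p = 0.00263), ule-2 had 99.9, 119.8 and 106 CPM at day 2, against 68.7, 61.6 and 58.3 CPM at day 1 (log2 fold change 0.79 ± 0.12, adjusted p = 0.00807) and ule-4 had 506, 498 and 487 CPM at day 2, against 353, 322 and 335 CPM at day 1 (log2 fold change 0.56 ± 0.13, adjusted p = 0.0482). The 3 day 2 libraries were close to each other and above all day 1 libraries in each. ule-3 and ule-5 gave -0.21 ± 0.13 (adjusted p = 0.463) and 0.03 ± 0.13 (adjusted p = 0.963). cpi-1, which encodes a cystatin-type protease inhibitor, rose with 233, 142 and 169 CPM at day 2, against 88.5, 92.6 and 80.3 CPM at day 1 (log2 fold change 1.06 ± 0.20, adjusted p = 0.0235). ule-1 passed in all 12 fits. Over the 12 fits with 1 library left out, the adjusted p reached 0.0554 for ule-2 and 0.193 for ule-4 (replicate 2 of L4440 day 1 left out); 0.0886 for cpi-1 (replicate 3 of L4440 day 1 left out).

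Some regulators that act in the early embryo changed, in both directions. Of 43 early zygotic regulators, 5 fell (11.6%) and 2 rose (4.65%), with a median of -0.14. Over all genes 1.29% fell and 1.01% rose. end-1, a GATA factor gene of endoderm, had 0.200, 0.514 and 0.339 CPM at day 2, against 1.67, 1.70 and 1.73 CPM at day 1 (log2 fold change -2.29 ± 0.34, adjusted p = 0.00648). ceh-51, a homeobox gene of the MS blastomere, had 0.732, 0.847 and 1.09 CPM at day 2, against 3.05, 3.07 and 3.36 CPM at day 1 (log2 fold change -1.84 ± 0.26, adjusted p = 0.00549). hnd-1, a mesodermal bHLH gene, had 2.77, 2.78 and 3.22 CPM at day 2, against 5.50, 5.35 and 6.06 CPM at day 1 (log2 fold change -0.95 ± 0.14, adjusted p = 0.00708), and the Hox gene ceh-13 had 7.63, 5.51 and 6.51 CPM at day 2, against 11.7, 11.2 and 10.7 CPM at day 1 (log2 fold change -0.77 ± 0.14, adjusted p = 0.0201). In each of the 4 genes the days did not overlap, and the day 2 libraries of end-1 differed by more than 2-fold among themselves. end-3, the partner gene of end-1, gave log2 fold change -0.49 ± 0.33, adjusted p = 0.51. The 2 that rose were the T-box genes tbx-37 and tbx-38, which act redundantly in anterior blastomeres; tbx-37 had 6.65, 2.84 and 3.87 CPM at day 2, against 1.41, 0.928 and 1.26 CPM at day 1 (log2 fold change 1.90 ± 0.42, adjusted p = 0.0409) and tbx-38 had 9.72, 4.60 and 6.34 CPM at day 2, against 2.41, 2.03 and 1.85 CPM at day 1 (log2 fold change 1.71 ± 0.40, adjusted p = 0.0484). Replicate 1 of day 2 was highest for both. end-1, ceh-51 and hnd-1 passed in all 12 fits. Leaving out single libraries brought the adjusted p up to 0.0864 for ceh-13, 0.178 for tbx-37 and 0.181 for tbx-38 (replicate 2 of L4440 day 1 left out). end-3 was picked after its value was seen.

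The sdz genes, zygotic genes that depend on the maternal factor SKN-1, gave 5 falls and no rise among 30 tested (16.7%). Over all genes 1.29% fell, and the median of the family was -0.49. sdz-30 had 9.96, 7.53 and 7.94 CPM at day 2, against 25.9, 22.9 and 23.2 CPM at day 1 (log2 fold change -1.50 ± 0.17, adjusted p = 0.00137). sdz-16 had 2.02, 2.00 and 1.63 CPM at day 2, against 4.29, 4.40 and 4.36 CPM at day 1 (log2 fold change -1.21 ± 0.19, adjusted p = 0.00885), and sdz-15 had 0.954, 0.696 and 0.78 CPM at day 2, against 2.38, 2.14 and 2.45 CPM at day 1 (log2 fold change -1.51 ± 0.22, adjusted p = 0.00562). The median of the family was -0.0543 in replicate 1 of day 2, against -0.636 and -0.441 in replicates 2 and 3, as log2 deviations from the day 1 mean. Between 3 members (without replicate 2 of L4440 day 1) and 8 (without replicate 3 of bcat-1 RNAi day 2) fell with 1 library left out. Of 238 F-box genes of the fbxa, fbxb and fbxc families, 8 fell (3.36%) and 2 rose (0.84%), with a median of -0.18. Over all genes 1.29% fell and 1.01% rose, so the share of F-box genes that rose was no larger than that of all genes. fbxb-46 had 1.06, 0.908 and 1.15 CPM at day 2, against 2.62, 2.74 and 2.54 CPM at day 1 (log2 fold change -1.34 ± 0.18, adjusted p = 0.00402). sdz-30, sdz-16, sdz-15 and fbxb-46 passed in all 12 fits.

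Intestinal and transport genes changed one by one. Of 38 intestine genes 4 fell (10.5%) and 2 rose (5.26%), against 1.29% and 1.01% of all genes. asp-1, an aspartyl protease gene of the intestine, had 908, 843 and 828 CPM at day 2, against 1308, 1513 and 1415 CPM at day 1 (log2 fold change -0.72 ± 0.11, adjusted p = 0.00752). cpr-5, a cathepsin B-like protease gene, had 61.6, 85.8 and 60.9 CPM at day 2, against 181, 203 and 183 CPM at day 1 (log2 fold change -1.44 ± 0.16, adjusted p = 0.00114). The peptide transporter gene pept-1 and the sodium-proton exchanger gene nhx-2 also fell (log2 fold change -0.59 ± 0.13, adjusted p = 0.0394 and log2 fold change -0.57 ± 0.12, adjusted p = 0.0314). Of 11 aquaporin genes, aqp-7 and aqp-8 fell (18.2%): aqp-7 had 52.7, 55.3 and 51.1 CPM at day 2, against 87.3, 97.3 and 85.7 CPM at day 1 (log2 fold change -0.76 ± 0.11, adjusted p = 0.00438), and aqp-8 had 13.6, 20.3 and 20.6 CPM at day 2, against 37.9, 42.02 and 37.4 CPM at day 1 (log2 fold change -1.11 ± 0.15, adjusted p = 0.0046). catp-3, of the family of sodium-potassium pumps, rose with 64.1, 45.5 and 42.5 CPM at day 2, against 22.1, 16.2 and 16.8 CPM at day 1 (log2 fold change 1.47 ± 0.25, adjusted p = 0.012). far-3, a fatty acid and retinol binding protein gene, rose with 71.2, 33.7 and 39.8 CPM at day 2, against 17.8, 14.2 and 11.1 CPM at day 1 (log2 fold change 1.75 ± 0.32, adjusted p = 0.017). asp-1, cpr-5, aqp-7 and aqp-8 passed in all 12 fits. The adjusted p in fits with 1 library left out went up to 0.172 for pept-1, 0.151 for nhx-2, 0.0781 for catp-3 and 0.0871 for far-3 (replicate 2 of L4440 day 1 left out). The receptor genes octr-1 and ser-7 were picked after their values were seen and stand for no list. octr-1, an octopamine receptor gene, had 2.86, 3.15 and 2.98 CPM at day 2, against 0.953, 1.11 and 1.04 CPM at day 1 (log2 fold change 1.53 ± 0.19, adjusted p = 0.00253), and ser-7, a serotonin receptor gene, had 0.998, 0.575 and 0.95 CPM at day 2, against 2.00, 1.95 and 1.73 CPM at day 1 (log2 fold change -1.16 ± 0.26, adjusted p = 0.0416). octr-1 passed in all 12 fits. With 1 library left out, the highest adjusted p was 0.148 for ser-7 (replicate 2 of L4440 day 1 left out).

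In larger families of small-molecule metabolism and signalling up to 4 genes each were called, to be read against 1.01% higher and 1.29% lower over all genes. Of 61 cytochrome P450 genes 2 fell (3.28%) and none rose, of 59 glucuronosyltransferase genes 3 fell (5.08%) and 1 rose (1.69%), and of 40 glutathione transferase genes 2 rose (5%) and none fell. Nuclear hormone receptors had 1 gene in each direction among 188 (0.532% each). gst-22, a glutathione transferase gene, had 14.6, 12.8 and 12.7 CPM at day 2, against 8.89, 7.94 and 7.91 CPM at day 1 (log2 fold change 0.70 ± 0.16, adjusted p = 0.0437). Among 48 transthyretin-related genes, a nematode family of secreted proteins, 2 rose and 2 fell (4.17% each). ttr-51 had 215, 171 and 180.3 CPM at day 2, against 114, 103 and 114 CPM at day 1 (log2 fold change 0.77 ± 0.15, adjusted p = 0.0257), and ttr-45 had 76.2, 63.00 and 65.9 CPM at day 2, against 41.6, 40.7 and 40.9 CPM at day 1 (log2 fold change 0.74 ± 0.13, adjusted p = 0.0173). Both had all day 2 libraries above all day 1 libraries. Of 65 nlp neuropeptide genes 2 rose (3.08%), nlp-34 with 3.19, 2.18 and 2.58 CPM at day 2, against 0.691, 0.641 and 0.659 CPM at day 1 (log2 fold change 1.99 ± 0.36, adjusted p = 0.0169) and nlp-39 with 2.62, 1.09 and 0.882 CPM at day 2, against 0.119, 0.133 and 0.314 CPM at day 1 (log2 fold change 3.07 ± 0.59, adjusted p = 0.0242). None of 30 flp neuropeptide genes was called by edgeR, DESeq2 or limma-voom, and none had an unadjusted p under 0.05. Over the 12 fits with 1 library left out, the adjusted p reached 0.175 for gst-22, 0.133 for ttr-51, 0.0865 for ttr-45, 0.0911 for nlp-34 and 0.131 for nlp-39 (replicate 2 of L4440 day 1 left out).

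Several families had large medians with few or no genes past the test, and in these the day 2 libraries differed. The 9 wrt genes, hedgehog-related genes of the epidermis, had a median log2 fold change of 2.64 and none called; 8 had an unadjusted p under 0.05, all higher, DESeq2 called 5 and limma-voom none. Their summed level was 75.19, 22.69 and 45.62 CPM in replicates 1, 2 and 3 of day 2, against 15.32, 17.04 and 21 CPM at day 1. Replicate 1 was thus highest and replicate 2 close to day 1. Collagens of the bli, dpy, rol and sqt group, which shape the cuticle at moults, had 588, 124 and 361 CPM at day 2, against 44.9, 70.5 and 119.5 CPM at day 1, with none of 19 called in edgeR (9 at an unadjusted p under 0.05, 8 called by DESeq2, none by limma-voom). In 52 genes of cilia the median was 1.19, with osm-6, of the transport machinery of cilia, the only one called (log2 fold change 1.05 ± 0.25, adjusted p = 0.0484).

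Per library, the cilia list had a median log2 deviation from the day 1 mean of 1.15, 0.168 and 0.61 in replicates 1, 2 and 3 of day 2. Neuronal genes had 0.747, -0.0484 and 0.274, and moulting genes 0.733, 0.0274 and 0.327. Epidermal genes had 0.67, -0.056 and 0.29. Every one of these lists was highest in replicate 1 and nearest 0 or below it in replicate 2. Without replicate 2 of day 2, 14 cilia genes, 14 of 28 cuticlin genes, 13 of 48 moulting genes, 8 of the bli, dpy, rol and sqt collagens, 5 wrt genes and 5 neuronal genes rose. Without replicate 1 of day 2 none of these lists had a member called. Of the genes tested with all 12 libraries, 693 were called without replicate 2 but not with it, and 652 of them were higher at day 2. The median deviation of the 693 was 1.62 in replicate 1, 0.233 in replicate 2 and 0.995 in replicate 3. These genes were selected by leaving out replicate 2, so its low value among them follows from the selection.

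**Figure D4:**
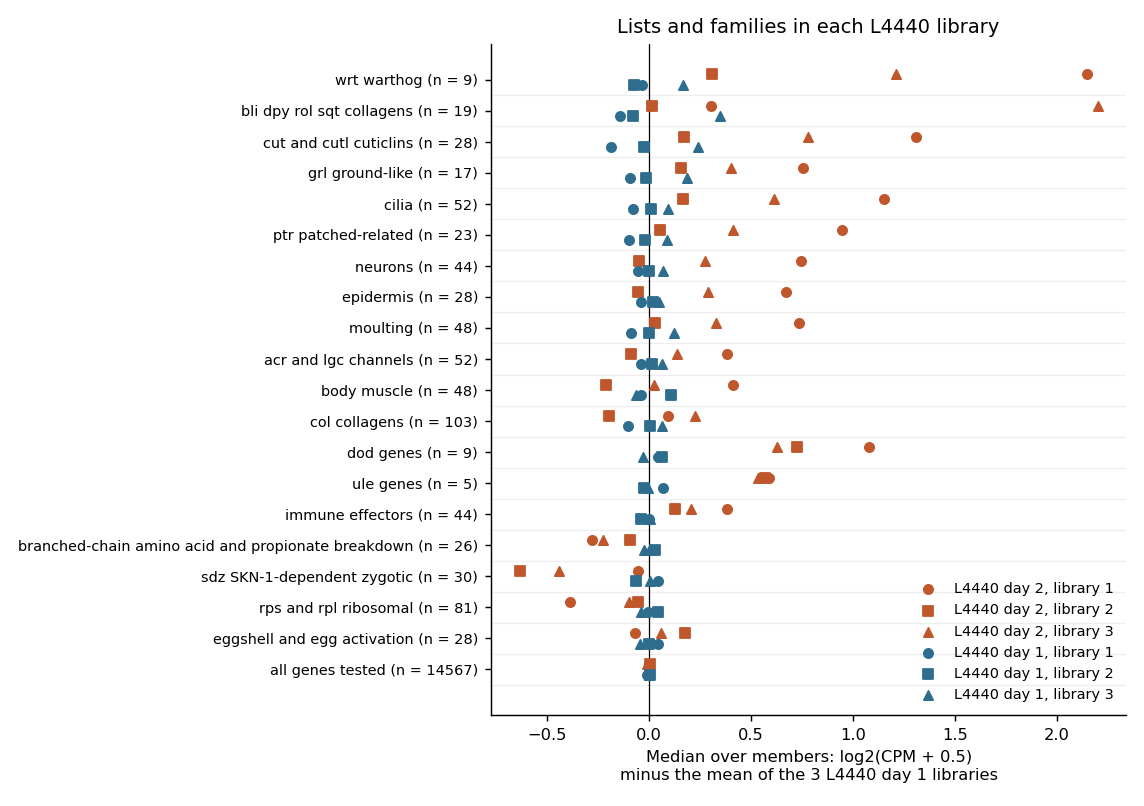
Median over the members of each list or family of log2(CPM + 0.5) minus the mean of the 3 L4440 day 1 libraries (horizontal), with 1 point for each L4440 library, day 2 in orange above day 1 in blue, and n the members tested. For wrt, cuticlin, cilia, neuronal and moulting genes replicate 1 of day 2 lies far to the right and replicate 2 near the day 1 points. The median of the ule genes, a family added after values were seen, lies at 0.53 to 0.59 in all 3 day 2 libraries.

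Genes of translation, protein breakdown and respiration were not called. In 81 genes of the cytosolic ribosome, 69 of the mitochondrial ribosome, 33 of the proteasome and 44 of the respiratory chain, edgeR, DESeq2 and limma-voom found none past the threshold. Members at an unadjusted p under 0.05 numbered 0, 3, 0 and 2, all lower at day 2. Their medians were -0.18, -0.13, -0.01 and -0.12. Ribosomal protein genes had a median deviation of -0.391 in replicate 1 of day 2, against -0.053 and -0.0981 in replicates 2 and 3. Among 30 genes of cytosolic chaperones and 31 of protein folding in the endoplasmic reticulum none was called by edgeR. At an unadjusted p under 0.05 in edgeR, 5 chaperone genes were higher at day 2 and none lower. In the endoplasmic reticulum list 2 genes were lower and none higher. DESeq2 called 1 in each list and limma-voom none.

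By chromosome, genes that fell made up 2.41% of the 2160 genes tested on X, against 0.661% to 1.56% on the 5 autosomes. Genes that rose made up 0.741% on X, and 1.59% on V and 1.58% on IV. On X, 52 genes fell and 16 rose, among them col-19, tnt-2, aqp-7, aqp-8 and haly-1 of the genes that fell. On III 15 fell and 11 rose among 2268. Of the 335 genes, 325 are protein-coding and 9 are pseudogenes, out of 13794 protein-coding genes and 500 pseudogenes tested.

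The bcat-1 RNAi libraries gave the same contrast from libraries that enter neither L4440 group mean. Both contrasts use the same estimate of the spread of each gene, so their calls are not independent of each other. The labels also do not say whether L4440 and bcat-1 RNAi libraries were grown or prepared together. Agreement between the contrasts may therefore not be independent either. Between bcat-1 RNAi at day 2 and bcat-1 RNAi at day 1, 593 genes (4.07%) differed, 293 higher (2.01%) and 300 lower (2.06%), and 347, 229 and 261 without replicates 1, 2 and 3 of bcat-1 RNAi day 1. Of the 335 genes called on L4440, 333 (99.4%) had the same sign on bcat-1 RNAi, against 73.6% of all genes. The share over all genes takes in genes with changes near 0, so the 2 shares are not like for like. The 222 genes called with the same sign on both make up 66.3% of the L4440 calls and 37.4% of the bcat-1 RNAi calls. The 2 genes of opposite sign were ugt-66, a glucuronosyltransferase gene (log2 fold change 2.48 with L4440 and -0.17 with bcat-1 RNAi), and WBGene00009104. T22B7.7 gave log2 fold changes of 4.18 with L4440 and 3.28 with bcat-1 RNAi, sri-40 -3.05 and -2.66, and acox-1.3 -2.18 and -2.14.

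Whether the age change itself differed between the RNAi bacteria was tested in the same fit, and no gene passed in edgeR (385 at an unadjusted p under 0.05, 13 called by DESeq2 and none by limma-voom). The model treats the 12 libraries as independent, and the labels do not say whether libraries of the L4440 and bcat-1 RNAi groups were grown or prepared together. The unevenness of day 2 was seen in both groups: the summed level of the wrt genes was 65.17, 22.1 and 37.43 CPM in the bcat-1 RNAi day 2 libraries, against 17.92, 20.25 and 25.46 CPM in the bcat-1 RNAi day 1 libraries. Its part in the test of the difference was not tested. The lowest p-values of this test belonged to folt-2, ugt-6 and hphd-1. folt-2 gave -0.90 with L4440 and -2.61 with bcat-1 RNAi (unadjusted p = 4.89e-05, adjusted p = 0.351). hphd-1 gave -0.66 and -1.69 (adjusted p of the difference 0.351), and ugt-6, another glucuronosyltransferase gene, gave 0.43 and -1.18 (adjusted p 0.351). The 5 propionate shunt genes fell on bcat-1 RNAi too, with log2 fold changes of -1.25 for acdh-1, -1.07 for ech-6, -1.16 for hach-1, -1.69 for hphd-1 and -0.66 for alh-8. In this RNAi group replicate 3 of day 2 is the library with high ribosomal RNA and no knockdown in its bcat-1 counts. Without this library 574 genes, rather than 335, were called on L4440.

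**Figure D5:**
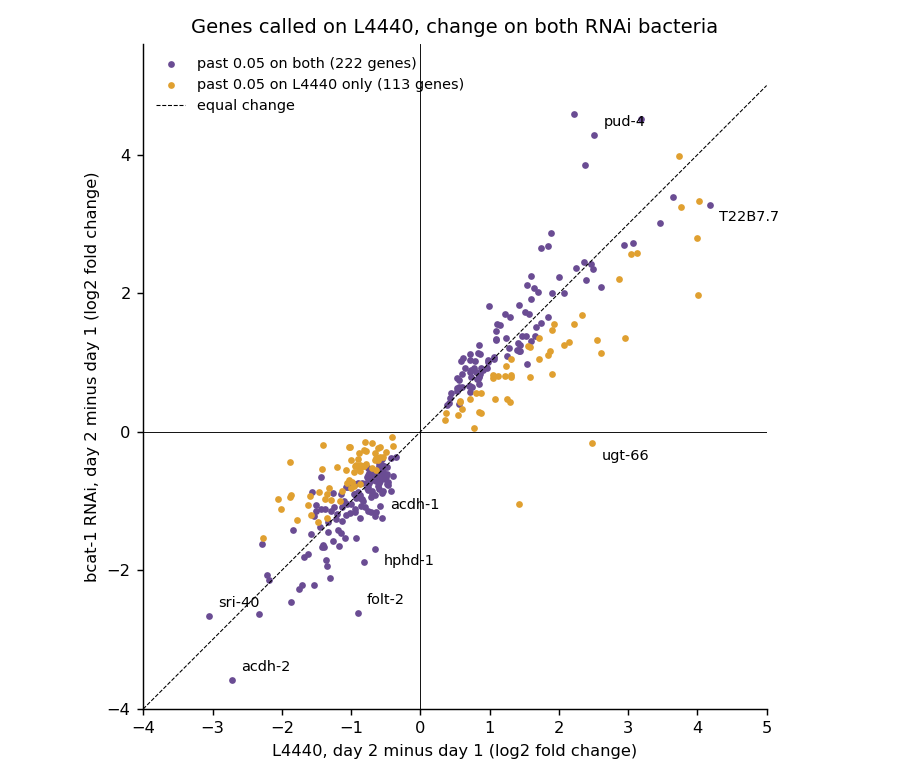
Log2 fold change of day 2 over day 1 on bcat-1 RNAi (vertical) against that on L4440 (horizontal) for the 335 genes called on L4440, with 222 past an adjusted p of 0.05 on both in purple and the other 113 in yellow; the dashed line marks equal change. All but 2 of the points lie in the quadrants of equal sign, and folt-2 and hphd-1 lie below the line.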

How the data were processed

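RNA of whole N2 hermaphrodites was sequenced from libraries made with the TruSeq RNA Library Preparation Kit v2, per the labels' protocols. Per the submitters' processing notes, the authors used bcl2fastq 1.8.4, STAR 2.4.1d, featureCounts 1.4.6-p4 and the build WBcel235. The deposited file used here holds raw read counts per gene, with no normalization by the authors. Whether counting used strand, how it treated reads with several matches and which gene models it used are not given in the sources used here. The authors' RPKM table was not used.

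Of 46748 genes, 46449 matched Ensembl annotation 115 (WBcel235), which gave symbols and positions. In R 4.3.3, edgeR 4.0.16 fitted 1 quasi-likelihood model with 4 group means to all 12 libraries, after filterByExpr (14567 genes left) and TMM scaling, with 8 residual degrees of freedom. P-values were two-sided and Benjamini-Hochberg adjusted over all genes tested; standard errors are the fold change divided by the root of F. CPM use TMM-scaled library sizes. Totals of 29885578 counts or more per L4440 library set the precision; a gene with 0 counts could still hold 3 counts, or 0.0684 to 0.1 CPM in the L4440 libraries.

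The comparison, 30 gene lists and 75 symbol families (1132 list members, 1102 in the table) were chosen with earlier results of these data known, and 6 families were added after values were seen. Lists are described by counts and medians without a test. Genes named are the 12 largest changes per direction with non-overlapping groups and a mean of at least 2 CPM, the 5 called genes per direction with the largest CPM difference, up to 4 called members per list (or the 2 of highest level where fewer than 2 passed) and the 3 with the smallest p of the difference; others are said to be picked after their values were seen. Alternatives were other scalings, filters and tools (DESeq2 1.42.0, limma 3.58.1), single libraries left out, and rRNA genes or libraries left out. Near-identical paralogs (major sperm protein, pud and col genes) may share reads.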

Additional observations from a re-analysis of the deposited data

How the results depend on the processing

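Every one of the 335 genes that was tested under an alternative kept its direction in all of them. The number called, 335 (147 higher, 188 lower), moved by more than 1.5 times under these settings. It was 100 (46 higher, 54 lower) without scaling factors, 999 (617 higher, 382 lower) with DESeq2, 867 (615 higher) without a filter on low counts and 35 (19 higher, 16 lower) when tested against a fold of 1.5. Upper-quartile factors gave 121 lower. With 1 library left out, the total ran from 79 (without L4440 day 1 replicate 2) to 1017 (without L4440 day 2 replicate 2), the higher genes from 34 to 805 and the lower genes from 45 to 351. An alternative chosen after seeing the data, without L4440 day 2 replicate 2 and bcat-1 day 2 replicate 3 together, gave 1463 (1035 higher, 428 lower). The cause was not tested. RLE factors (354), limma-voom (299), a stricter filter (275), the 6 L4440 libraries alone (294), rRNA genes left out (306) and both high-rRNA libraries left out (240) stayed within 1.5 times. On bcat-1 RNAi the 593 genes became 244 without scaling factors, 1021 with DESeq2, 87 against a fold of 1.5 and 229 to 657 with 1 library left out. The difference between the age changes gave 13 genes with DESeq2 and 1 without a filter, in place of 0. No paired analysis was possible because the labels give no replicate numbers; those used here follow the order of deposit and only name libraries. Genes with both groups below the floor of 3 counts, 0.0731 to 0.1 CPM at day 2 and 0.0684 to 0.0989 CPM at day 1, could not be compared at this depth.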
